A study of Mus musculus with 22 samples.

Results

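*Ube3a* and *Atp10a* are the 2 genes of the Prader-Willi locus on mouse chromosome 7 that are known for expression from the maternal chromosome, and they were taken by their symbols from both count tables of the series, 2 of 55409 annotated genes. The question put to them here was whether their RNA differed in newborn brains that lack paternal parts of the same locus. Whole newborn brains (P0) were sequenced after polyA selection. PWS-cr pups (labelled HET PWS-Cr, n = 6 libraries) carry a paternal deletion of the critical interval, with *Ipw* and the small nucleolar RNAs of the *Snord116* cluster, and were compared with 5 wild-type pups (WT) of the same series. The PWS-cr pups came from 4 litters and their wild types from 3 of them, so the PWS-cr pup of litter 2 had no wild-type littermate here. PWS-IC pups (n = 4) carry a paternal deletion of the imprinting centre and were compared with 5 wild-type littermates from 2 litters. Both deletions were heterozygous, so every group kept an intact maternal copy of the locus. The PWS-cr line is B6(Cg)-Snord116tm1Uta, and how the RNA cohorts were crossed is not given in the sources used here. The labels name 22 libraries, of which 20 were analysed and 2 wild types, 1 per series, were not analysed here. Total counts ranged from 45798407 to 54882018 in PWS-cr and from 47115606 to 55563780 in their wild types, and from 49063929 to 62103143 in PWS-IC and from 50924227 to 60413466 in theirs.

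*Ube3a* encodes an E3 ubiquitin ligase of the HECT class, which takes ubiquitin from a conjugating enzyme onto its own catalytic cysteine and passes it to substrates marked for the proteasome. In mature neurons the paternal copy is silenced by an antisense transcript, the far end of the long *Snhg14* host RNA that starts at the imprinting centre near *Snrpn*, while most other cells use both copies. Loss of the maternal copy in humans causes Angelman syndrome. *Atp10a* encodes a P4-ATPase, a flippase that moves phospholipids from the outer to the inner leaflet of membranes, and its maternal bias in mouse is known to depend on tissue and strain. The counts do not separate the parental alleles, so parental origin was not measured. In whole-brain RNA, fewer cells of a type and less RNA per cell cannot be told apart.

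In the mm10 annotation *Atp10a* (ENSMUSG00000025324) lies on the plus strand at chr7:58656166-58829420 with 2 transcripts and 5587 exon bases. *Ube3a* (ENSMUSG00000025326) lies on the same strand at chr7:59228750-59311536 with 18 transcripts and 20626 exon bases, its annotated start 572.6 kb beyond that of *Atp10a*. The promoter windows of both genes, taken from 250 bases before to 50 bases after the transcription start in RefSeq (build GRCm38.p6), are shown because the single exon of the opposite-strand transcript *9330162G02Rik*, whose counts fell in PWS-IC, spans the whole window of *Ube3a*, while no annotated gene on the opposite strand overlaps *Atp10a*. The *Ube3a* window is chr7:59228500-59228799 and the *Atp10a* window is chr7:58657952-58658251, both on the plus strand, and capitals mark each CG dinucleotide, the site of cytosine methylation.
Ube3a promoter: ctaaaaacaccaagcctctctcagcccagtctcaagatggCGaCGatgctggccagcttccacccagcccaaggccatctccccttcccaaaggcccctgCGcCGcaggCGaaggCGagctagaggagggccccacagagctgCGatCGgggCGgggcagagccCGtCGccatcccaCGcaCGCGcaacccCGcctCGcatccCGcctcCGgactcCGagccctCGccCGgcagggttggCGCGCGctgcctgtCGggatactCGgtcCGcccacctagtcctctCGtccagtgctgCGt
Atp10a promoter: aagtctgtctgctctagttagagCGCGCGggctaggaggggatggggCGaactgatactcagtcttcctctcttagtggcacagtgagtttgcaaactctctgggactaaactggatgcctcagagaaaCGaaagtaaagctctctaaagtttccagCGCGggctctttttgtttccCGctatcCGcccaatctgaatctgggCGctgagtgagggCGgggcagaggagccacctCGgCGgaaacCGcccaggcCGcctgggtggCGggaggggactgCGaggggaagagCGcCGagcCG
The motif searched was CG, which reads the same on both strands. The *Ube3a* window held 29 of them and the *Atp10a* window 20, and of all 32851 RefSeq promoter windows of this length 12.9% held at least as many as *Ube3a* and 26.5% at least as many as *Atp10a*.

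The libraries were unstranded, so a read from *Ube3a* and a read from opposite-strand RNA cannot be told apart at any *Ube3a* exon. Annotated exons show only where such overlap is known, and opposite-strand RNA outside them was not measured. The spans of 6 genes overlap *Ube3a*, 5 of them on the opposite strand and 1, *Gm44830*, on the same strand. Of these, 3 opposite-strand genes share exon bases with *Ube3a*. *9330162G02Rik* (chr7:59223847-59254788, a single exon of 30942 bases over the 5′ part of *Ube3a*) shares 1796 bases, which is 8.71% of the *Ube3a* exon bases. *Gm44560* (chr7:59286052-59289166) shares 2025 bases, or 9.82%. *Snhg14* (chr7:59307924-59975759) shares 1803 bases, or 8.74%, all within the 3′ end of the single transcript Ube3a-203. Together 5624 bases, 27.3% of the *Ube3a* exon bases, are shared with annotated exons of these genes. *Gm44562*, *Gm44559* and *Gm44830* lie in introns of *Ube3a* and share none. The gene lengths implied by the authors' FPKM values equal these exon unions, so the *Ube3a* value covers every annotated exon, including the retained-intron transcripts Ube3a-205 (4254 bases) and Ube3a-215 (3348 bases), against 4911 bases for the coding transcript Ube3a-201. *Atp10a* is overlapped by *Gm44936* and *Gm44937*, both on its own strand with 0 shared exon bases, which had 0 to 3 and 0 to 14 counts in the 20 libraries.

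The study also measured *Ube3a* in a separate RT-qPCR assay of whole brain, in which the paper reports overexpression in PWS-IC, also at P0. Its primers are shown because they mark a stretch of the gene that no annotated antisense exon reaches.
Ube3a forward primer: cagacgtgaccatattatagatgatgc
Ube3a reverse primer: ccacatacaactgcttcttcaagtct
The forward primer matched chr7:59276978-59277004 on the plus strand, in exon 4 of Ube3a-201, and the reverse primer matched chr7:59284709-59284734 on the minus strand, in exon 5. The product is 92 bases, is held by 4 of the 18 *Ube3a* transcripts and by 0 transcripts of other genes of the region, and lies 23189 bases from the nearest exon base shared with *Snhg14*. Exon bases shared with *Gm44560* are closer and start at chr7:59286054, beyond the reverse primer match that ends at chr7:59284734. The gene-level counts used here cover the whole exon union and cannot be reduced to that product.

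Before any comparison, the labels of the PWS-IC series were checked, since 2 of its libraries went against them. The library labelled 1_3_IC (PWS-IC, female) had 18116 counts of *Snrpn*, a paternally expressed gene of the locus, 64 of *Xist*, which coats the silenced X chromosome, and 3191 of the Y-linked *Eif2s3y*. The library labelled 1_7_IC (WT, male) had 343, 124574 and 9 counts of the same genes. Both are from litter 1, and each PWS-IC result is therefore given for all 9 libraries as labelled and for the 7 others. Among the 7, the 3 PWS-IC libraries are all labelled female and 1 of the 4 wild types is, so sex and genotype are nearly confounded there. Neuron markers such as *Tubb3* and *Snap25* were abundant in every library, with a summed level over 10 markers of 7904 to 8452 CPM in PWS-cr and 7491 to 8395 CPM in their wild types, and of 7914 to 9047 CPM in PWS-IC and 8004 to 8424 CPM in theirs.

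*Ube3a* did not differ detectably between PWS-cr and wild-type brains. In PWS-cr its normalised level ran from 149 CPM (counts scaled to library size by TMM within the series) to 168 CPM with a median of 157 CPM (n = 6). The 5 wild-type libraries had 144, 159, 159, 166 and 167 CPM. The groups overlapped over most of their range, and the lowest library of all was a wild type of litter 1. The means were 157 ± 7.24 CPM in PWS-cr and 159 ± 9.11 CPM in wild type (SD), from raw counts of 6800 to 8701 in PWS-cr and 7681 to 8915 in wild type. In edgeR's quasi-likelihood test with litter in the model, the log2 fold change was 0.02 (SE 0.05, 95% interval -0.09 to 0.14, adjusted p = 0.9999), a fold of 1.02 with bounds of 0.940 and 1.10. *Ube3a* was thus not among the 3 of 22172 genes called, a background of 0.0135%. The summed level of 10 caudal hindbrain and spinal cord genes ran from 0.395 to 91.0 CPM in PWS-cr and from 0.876 to 30.4 CPM in wild type, with a median log2 fold change of 2.42 and 0 of the 10 called, and its part in the *Ube3a* value was not tested.

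**Figure D1:**
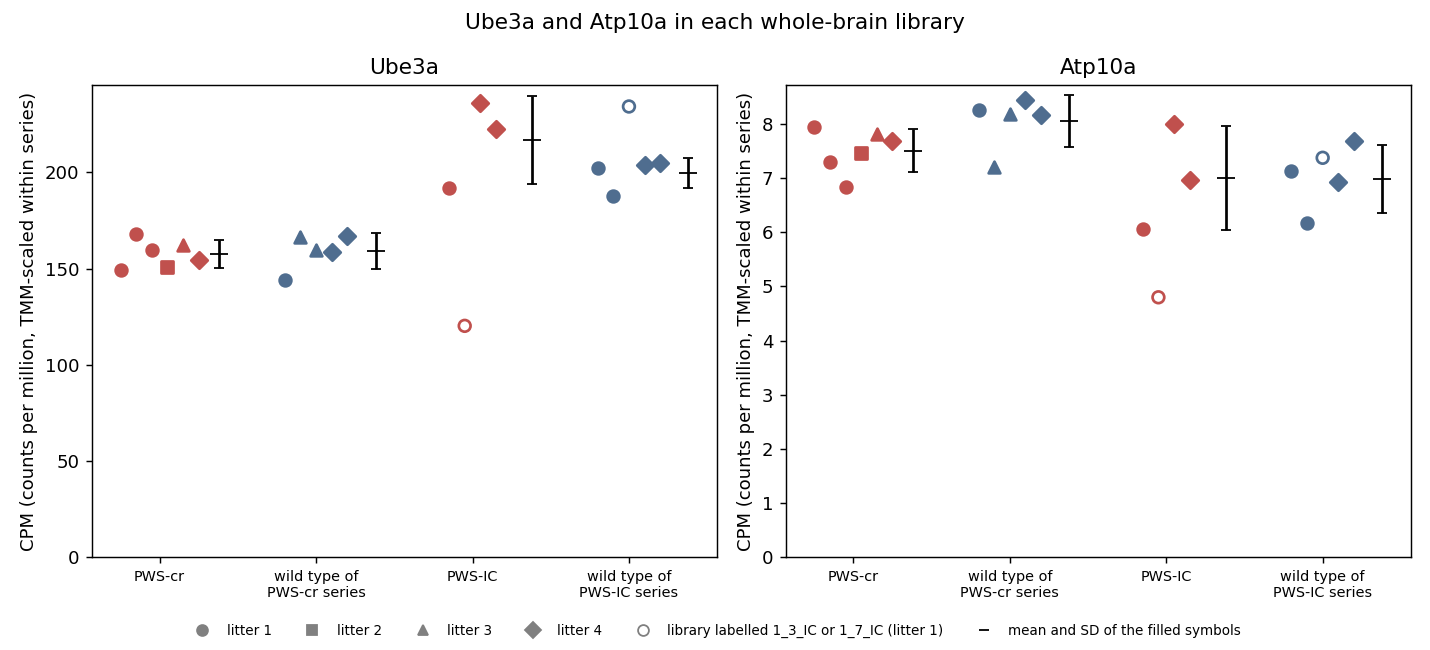
Normalised level (CPM, vertical axis from 0) of *Ube3a* and *Atp10a* in each library by group, with a marker for each litter, open symbols for the libraries labelled 1_3_IC and 1_7_IC, and bars for the mean and SD of the filled symbols. For both genes the filled mutant symbols overlap those of their wild types, and the open symbol of the library labelled 1_3_IC is the lowest of the PWS-IC series.

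Within the litters that held both genotypes, the *Ube3a* difference took both signs. In litter 1 the 3 PWS-cr pups averaged 159 CPM and the single wild type had 144 CPM, a log2 ratio of 0.14. In litter 3 the PWS-cr pup had 162 CPM and the wild types averaged 163 CPM, and in litter 4 the PWS-cr pup had 154 CPM and the wild types averaged 163 CPM, log2 ratios of -0.01 and -0.08. The sign in litter 1 rests on 1 wild-type library.

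In the PWS-IC series as labelled, *Ube3a* had 120, 192, 222 and 236 CPM in PWS-IC brains and 188, 202, 204, 205 and 234 CPM in wild-type brains. The lowest value belonged to the library labelled 1_3_IC and the highest wild-type value to the library labelled 1_7_IC, so the pair that went against its labels stood at the low end of one group and the high end of the other. The log2 fold change over the 9 libraries was -0.15 (SE 0.16, 95% interval -0.50 to 0.20, edgeR adjusted p = 0.724). In that fit 0 of 22367 genes were called, a background of 0%. At an unadjusted p under 0.05 there were 1840 genes (8.23%), and DESeq2 called 1.

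Without the pair, *Ube3a* had 192, 222 and 236 CPM in PWS-IC, against 188, 202, 204 and 205 CPM in wild type. The means were 217 ± 22.7 CPM in PWS-IC (SD, n = 3) and 199.5 ± 7.83 CPM in wild type (n = 4). Both PWS-IC pups of litter 4 were above every wild type, while the PWS-IC pup of litter 1 lay within the wild-type range. In litter 4 the mean was 229 CPM in PWS-IC and 204 CPM in wild type, a log2 ratio of 0.17, and in litter 1 it was 192 CPM in PWS-IC and 195 CPM in wild type, a ratio of -0.02. The fitted log2 fold change was 0.10 (SE 0.06, 95% interval -0.03 to 0.23, unadjusted p = 0.127, edgeR adjusted p = 0.502), a fold of 1.07 with bounds of 0.977 and 1.17. *Ube3a* was not among the 53 of 21913 genes called, a background of 0.242%. With sex added to the model the value turned to -0.02 (adjusted p = 0.930), and with the labelled sexes almost aligned with genotype the 2 cannot be told apart in these libraries.

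The summed level of 8 red blood cell genes was higher in those PWS-IC libraries (439 to 674 CPM) than in their wild types (138 to 327 CPM). *Hbb-bt*, an adult beta globin, was called higher, 1 of 6 tested. *Slc2a1*, the glucose transporter of brain endothelium, was called higher too, 1 of 8 endothelial and pericyte genes. The median log2 fold change of those 8 was 0.02, and 4 were positive. Of all tested genes, 0.242% were called in either direction. The part of these differences in the *Ube3a* value was not tested.

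The PWS-IC effect on *Ube3a* was not shown to differ from the PWS-cr effect. In 1 fit over both series the difference of the log2 fold changes was 0.08 without the pair (SE 0.08, 95% interval -0.09 to 0.24, edgeR adjusted p = 0.830) and -0.16 with all libraries as labelled (interval -0.52 to 0.21, adjusted p = 0.870). The test called 43 of 23574 genes without the pair, 0.182%, and 0 of 23771 as labelled, 0%, where 1123 (4.72%) had an unadjusted p under 0.05.

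**Figure D2:**
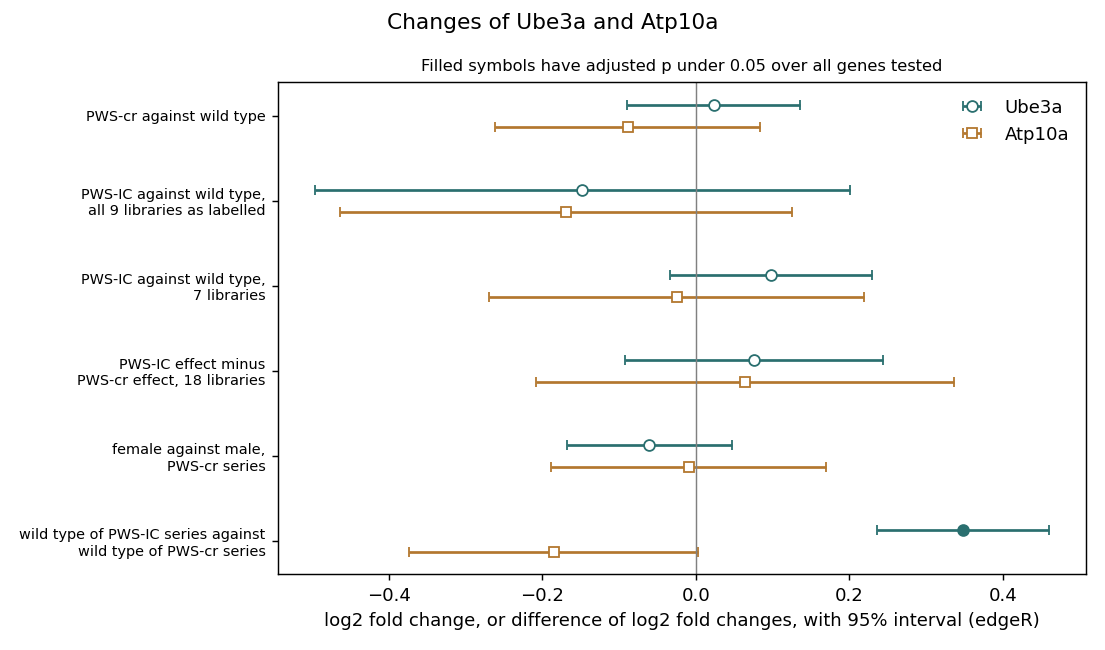
Log2 fold change of *Ube3a* and *Atp10a*, or difference of log2 fold changes, with its 95% interval from edgeR (horizontal axis) for each comparison (rows), with filled symbols where the adjusted p over all genes tested was under 0.05. Every interval but that of *Ube3a* between the wild types of both series includes 0.

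The genes that overlap *Ube3a* moved far more than *Ube3a* did. In PWS-IC without the pair all 6 were lower than in wild type, with adjusted p under 0.05 in edgeR and no overlap in CPM between the groups, against 0.16% of all tested genes called lower and 4.95% with no overlap in that direction. *9330162G02Rik* had 481, 644 and 1569 counts in PWS-IC and 8553 to 11139 counts in the 4 wild types. Its level averaged 16.3 ± 11.5 CPM in PWS-IC and 170 ± 12.8 CPM in wild type (SD), with a log2 difference of -3.43 (SE 0.29, adjusted p = 0.000133). *Gm44562* had 15 to 26 counts in PWS-IC and 767 to 920 in wild type (log2 fold change -5.48), and *Gm44559* had 22 to 25 in PWS-IC and 578 to 713 in wild type (-4.75). *Gm44560* had 5 to 11 counts in PWS-IC and 260 to 364 in wild type (-5.08), and *Gm44830*, annotated on the strand of *Ube3a*, had 26 to 28 in PWS-IC and 187 to 271 in wild type (-3.04). *Snhg14* had 985 to 1445 counts in PWS-IC and 9012 to 12640 in wild type (-3.10).

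Any *Ube3a* exon can hold reads of either strand, so opposite-strand counts of whole genes were set beside those of *Ube3a* in each library. Counts of *9330162G02Rik* and *Gm44560* summed to 15.5, 3.90 and 4.63% of the *Ube3a* counts in the PWS-IC libraries 1_10_IC, 4_4_IC and 4_5_IC, and to 79.2 to 94.6% in the 4 wild types. Only 1796 of the 30942 exon bases of *9330162G02Rik* are shared, so these percentages do not show how many reads the shared bases held. *Snhg14*, which shares 1803 bases, was not in the sums. In these libraries *9330162G02Rik* had 29.6, 9.10 and 10.1 CPM in PWS-IC and 156 to 186 CPM in wild type, and *Ube3a* had 192, 236 and 222 CPM in PWS-IC and 188 to 205 CPM in wild type. The *9330162G02Rik* levels were far apart between the groups, while of the *Ube3a* levels those of both litter 4 PWS-IC pups lay above and that of the litter 1 pup within the wild-type range. How the authors' counting assigned fragments that overlap exons of more than 1 gene is not given in the sources used here, and the part of the opposite-strand RNAs in the *Ube3a* count was not tested.

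In PWS-cr, 1 of the 6 overlapping genes, *Snhg14*, passed the test, beside 0.0135% of all tested genes. The other 5 had positive log2 fold changes that did not pass. *Gm44562* averaged 23.1 ± 2.73 CPM in PWS-cr and 16.7 ± 0.823 CPM in wild type, 0.50 higher on the log2 scale (SE 0.07, edgeR adjusted p = 0.115). *Gm44559* averaged 16.2 ± 1.53 CPM in PWS-cr and 10.97 ± 0.939 CPM in wild type (0.59, SE 0.08, adjusted p = 0.0970). Neither passed the threshold in edgeR, though for both the lowest PWS-cr value exceeded the highest wild-type value, a pattern seen in 0.0812% of all tested genes. The paper, which used DESeq2, counts both among its differentially expressed genes in PWS-cr. *Gm44560*, *Gm44830* and *9330162G02Rik* had log2 fold changes of 0.44, 0.56 and 0.14, each with an adjusted p of 0.9999. *Snhg14*, which is the host RNA of the deleted *Snord116* copies, fell to 46.3 ± 2.37 CPM in PWS-cr, against 147 ± 10.4 CPM in wild type (log2 fold change -1.67, adjusted p = 2.36e-06). Whole-gene counts of *9330162G02Rik* and *Gm44560* together were 108 to 127% of the *Ube3a* counts in PWS-cr and 79.3 to 113% in wild type. Without the pair, the difference between the PWS-IC and PWS-cr effects passed the test for all 6 overlapping genes, from -1.43 for *Snhg14* to -5.99 for *Gm44562* on the log2 scale, beside 0.14% of all tested genes called in that direction, whereas that of *Ube3a* did not.

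**Figure D3:**
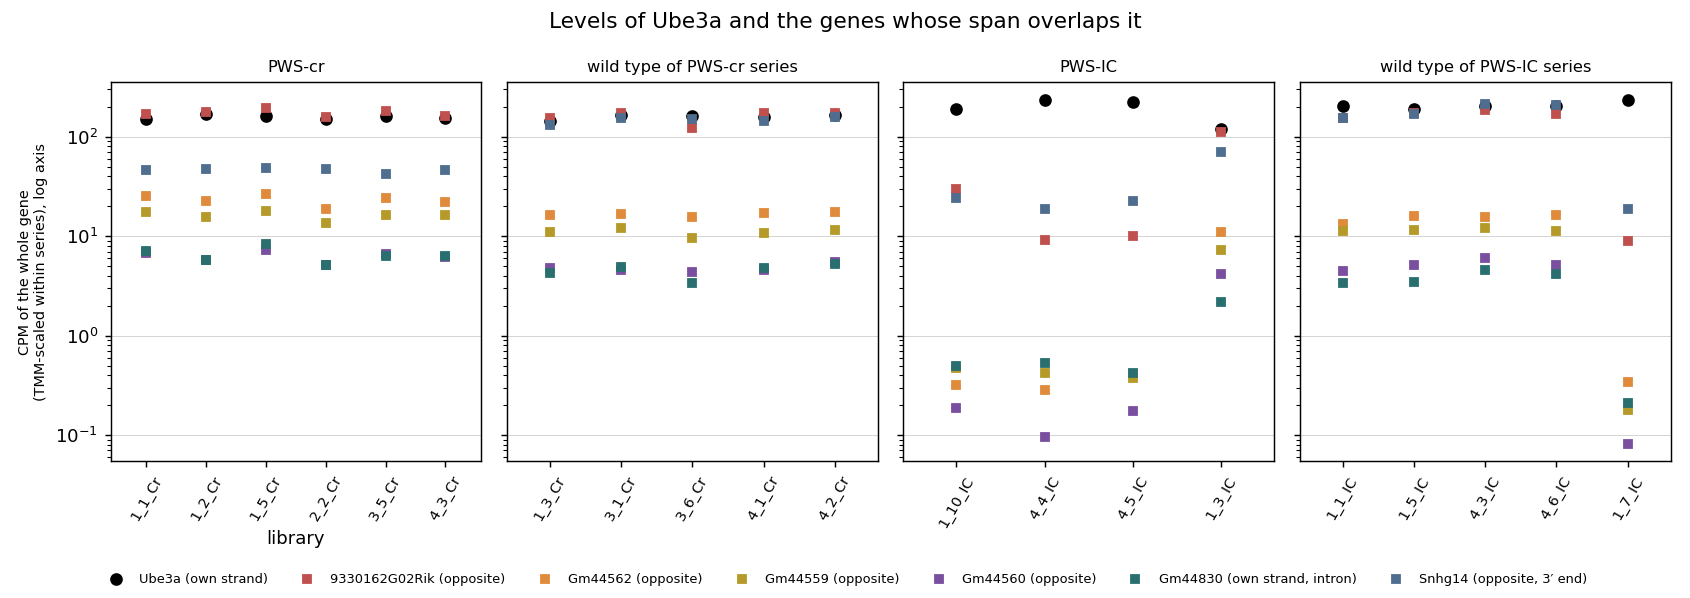
Level (CPM of the whole gene, scaled within each series, log axis) of *Ube3a* and the 6 genes whose span overlaps it, in each library (horizontal axis) by group. *Ube3a* lies between 120 and 236 CPM in every library, and the overlapping genes are low in the PWS-IC libraries other than that labelled 1_3_IC and in the library labelled 1_7_IC, while in PWS-cr *Snhg14* alone of them is low (46.3 CPM on average, against 147 CPM in wild type).

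*Atp10a*, the lipid flippase gene whose annotated start lies 572.6 kb before that of *Ube3a*, showed no detectable difference in either model. In PWS-cr it ran from 6.84 to 7.94 CPM with a median of 7.58 CPM (n = 6). The 5 wild types had 7.21, 8.17, 8.18, 8.26 and 8.43 CPM. The 4 upper wild types lay above every PWS-cr library, and the remaining wild type, 3_1_Cr, lay inside their range. The means were 7.51 ± 0.402 CPM in PWS-cr and 8.05 ± 0.480 CPM in wild type (SD), from 360 to 419 counts per library in PWS-cr and 387 to 454 in wild type. The log2 fold change was -0.09 (SE 0.08, 95% interval -0.26 to 0.08, edgeR adjusted p = 0.9999), a fold of 0.940 with bounds of 0.835 and 1.06. Within litters 1, 3 and 4 the log2 ratios were -0.17, 0.02 and -0.11.

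In the PWS-IC series as labelled, *Atp10a* had 4.80, 6.07, 6.97 and 7.99 CPM in PWS-IC, against 6.17, 6.93, 7.13, 7.37 and 7.69 CPM in wild type. The library labelled 1_3_IC was again the lowest, with 223 counts, and the groups otherwise overlapped. The log2 fold change was -0.17 (SE 0.13, 95% interval -0.46 to 0.13, edgeR adjusted p = 0.640). Without the pair the means were 7.01 ± 0.961 CPM in PWS-IC (SD, n = 3) and 6.98 ± 0.629 CPM in wild type (n = 4), with a log2 fold change of -0.02 (SE 0.11, interval -0.27 to 0.22, adjusted p = 0.940) and a fold of 0.983 with bounds of 0.830 and 1.16. Within litters the log2 ratios were -0.13 in litter 1 and 0.03 in litter 4. The PWS-IC effect minus the PWS-cr effect was 0.06 without the pair (interval -0.21 to 0.34, adjusted p = 0.920) and -0.07 as labelled (adjusted p = 0.941). With 223 to 454 counts per library, *Atp10a* rested on far fewer counts than *Ube3a*. Changes within the intervals given were not detectable in these libraries, and the part of depth in the width of the intervals was not tested.

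Of the comparisons made, *Ube3a* passed the test in 1, that between the wild types of the 2 series. On a scale fitted to both series together, the 4 wild types of the PWS-IC series (without the library labelled 1_7_IC) had 201 ± 7.70 CPM and the 5 wild types of the PWS-cr series 158 ± 8.94 CPM (SD). The range was 189.5 to 205.8 CPM in the wild types of the PWS-IC series and 143 to 165 CPM in those of the PWS-cr series. The log2 fold change was 0.35 (SE 0.05, 95% interval 0.24 to 0.46, edgeR adjusted p = 0.000438), a fold of 1.27 with bounds of 1.18 and 1.38. Litters are nested in series and were no term of this fit, so littermates were treated as independent and the interval may be too narrow. *Atp10a* had 7.03 ± 0.631 CPM in the wild types of the PWS-IC series and 7.98 ± 0.466 CPM in those of the PWS-cr series, a log2 fold change of -0.18 (SE 0.09, interval -0.37 to 0.00, adjusted p = 0.156). The background is high in this comparison, with 4686 of 22260 genes, 21.1%, called, 10.3% higher and 10.8% lower. The tables were deposited for each series separately, and colony, genetic background, handling and tissue makeup cannot be told apart here. Among markers, 6 of 8 endothelial and pericyte genes such as *Pecam1* were called lower (median log2 fold change -0.22), and 4 of 6 tested red blood cell genes (median 1.00) and 3 of 9 caudal hindbrain genes (*Hoxb6*, *Hoxb7* and *Hoxb8*, median of the list 1.32) were called higher. The part of these differences in the *Ube3a* value was not tested. Of the genes overlapping *Ube3a*, *Snhg14* was called in the same direction (0.36, adjusted p = 0.0135), and the other 5 ranged from -0.19 for *Gm44830* to 0.16 for *Gm44560* and did not pass.

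Sex made no detectable difference to either gene in the PWS-cr series, where both sexes stand in both genotypes. Female against male, *Ube3a* stood at -0.06 on the log2 scale (SE 0.05, 95% interval -0.17 to 0.05) and *Atp10a* at -0.01 (SE 0.08, interval -0.19 to 0.17), each with an edgeR adjusted p of 0.99996. The test called 7 of 22172 genes, 0.0316%.

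Levels of different genes were compared on the authors' FPKM, which divides by gene length. *Ube3a* averaged 7.61 ± 0.317 FPKM in PWS-cr and 7.73 ± 0.443 FPKM in wild type, and 10.6 ± 1.40 FPKM in PWS-IC (n = 3) and 9.72 ± 0.392 FPKM in wild type (n = 4). *Atp10a* averaged 1.34 ± 0.0764 FPKM in PWS-cr and 1.44 ± 0.0919 FPKM in wild type, and 1.26 ± 0.205 FPKM in PWS-IC and 1.25 ± 0.110 FPKM in its wild types. The *Ube3a* level was above that of 76.7% of tested genes in the PWS-IC series and 71.4% in the PWS-cr series, and the *Atp10a* level above 39.8% and 41.1%. In every library *Ube3a* was the higher of the pair, by 6.79 to 8.65 times in the PWS-IC series and 4.73 to 6.31 times in the PWS-cr series. Since the exon union of *Ube3a* holds many bases outside its coding transcript, its FPKM depends on that length.

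Within its family, *Ube3a* stood in the lower part by FPKM over its exon union of 20626 bases. That place depends on the length used, since the coding transcript Ube3a-201 has 4911 bases, and an order by transcript length was not made. Of 26 HECT ligases ordered by mean FPKM it was 19th from the top in PWS-cr and in their wild types, 17th in PWS-IC and 18th in their wild types. In the wild types of the PWS-IC series its neighbours in the order were *Wwp1* at 10.7 ± 0.703 FPKM above and *Herc3* at 9.01 ± 0.760 FPKM below, and the step to *Herc3* was within the SD of *Herc3*. In the wild types of the PWS-cr series they were *Herc3* at 8.96 ± 0.590 FPKM above and *Itch*, a ligase of immune signalling, at 6.65 ± 0.511 FPKM below, both farther away than the SDs. *Nedd4*, the ligase of many membrane proteins, led the family in all 4 groups with 78.9 to 84.5 FPKM, and *Herc6* was the lowest at 0.178 to 0.253 FPKM.

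None of the 25 other HECT ligases was called in PWS-cr or in PWS-IC with or without the pair. Of all tested genes, 0.0135% were called in PWS-cr, 0% in PWS-IC as labelled and 0.242% without the pair. With shares this low, 0 calls in a list of this size says little about the family. Their median log2 fold change was -0.02 in PWS-cr and -0.06 in PWS-IC without the pair, beside medians of 0.00 over all tested genes in both. The most abundant members had small values, with log2 fold changes in PWS-cr and in PWS-IC of 0.02 and -0.07 for *Nedd4*, -0.07 and -0.02 for *Huwe1*, a very large ligase with many substrates, -0.03 and -0.07 for *Hectd4*, and -0.11 and -0.06 for *Herc2*, which binds Ube3a protein. As labelled, the family's median in PWS-IC was -0.16, and its summed level was 3422 CPM in the library labelled 1_3_IC, against 4746 to 4954 CPM in the other PWS-IC libraries and 4804 to 5212 CPM in wild type. The low *Ube3a* value of that library stood beside low values of its family, and the same library had 1318 CPM of choroid plexus markers such as *Ttr*, against 500 to 761 CPM in the other libraries of the series. The part of tissue makeup in these values was not tested. Between the wild types of both series, 4 of the 25 were called higher (*Hectd2*, *Herc1*, *Smurf2* and *Wwp1*, log2 fold changes of 0.18 to 0.34) and 1 lower (*Hectd4*, -0.34), a share near the background of 10.3% of all tested genes called higher and 10.8% called lower.

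The conjugating enzymes that charge *Ube3a* and its proposed substrates gave 0 calls of 14 in PWS-cr and in both PWS-IC fits. The shares of all tested genes called were 0.0135% in PWS-cr, 0% in PWS-IC as labelled and 0.242% without the pair. Their median log2 fold change was 0.00 in PWS-cr and 0.07 in PWS-IC without the pair. *Ube2d3* and *Ube2d1*, ubiquitin-conjugating enzymes, had 0.00 and -0.10 in PWS-cr and 0.09 and -0.05 in PWS-IC, *Rad23b*, a shuttle factor to the proteasome, had 0.01 and 0.07, and *Ptpa*, an activator of a protein phosphatase, had 0.00 in both. *Arc*, the immediate early gene once proposed as a substrate, had the lowest value of the list in PWS-IC at -0.49 (edgeR adjusted p = 0.213) and the highest in PWS-cr at 0.17, and it is named for these values after they were seen.

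**Figure D4:**
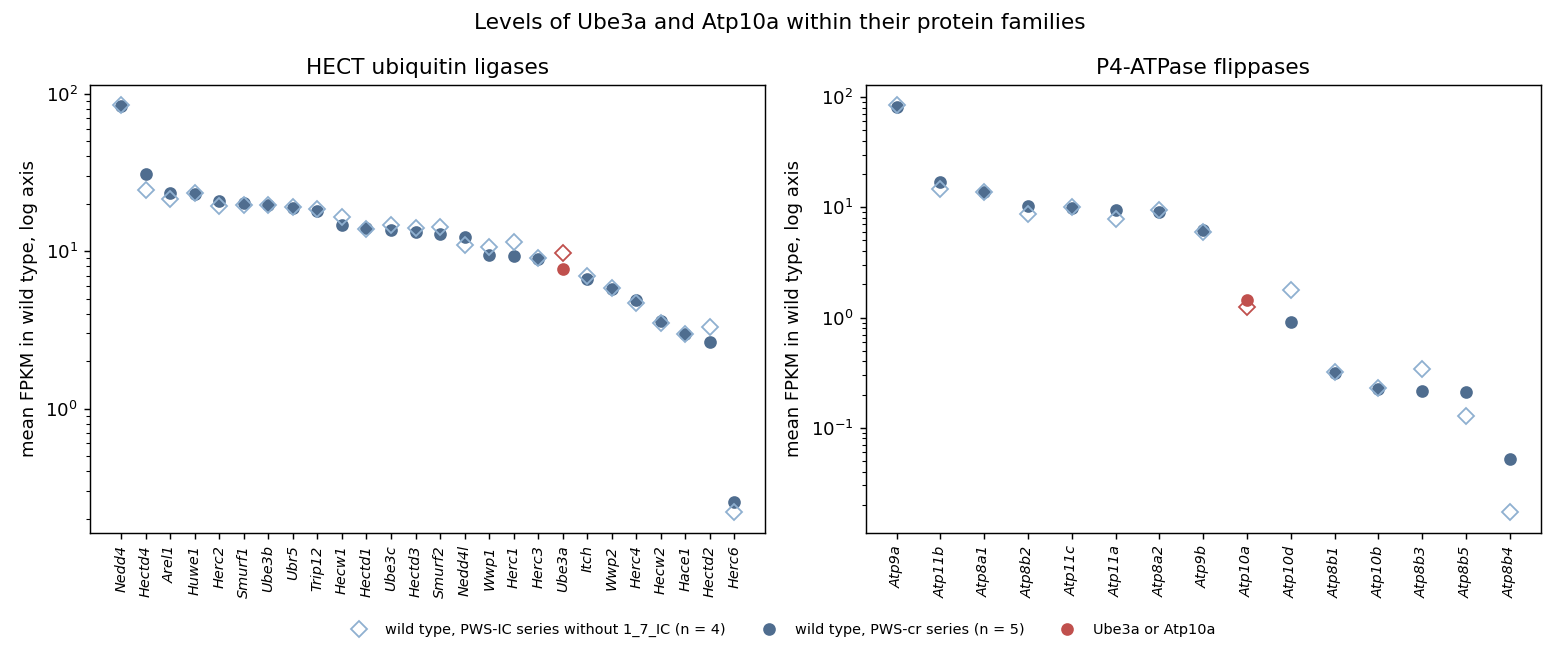
Mean FPKM in wild types of each series (log axis) of the HECT ubiquitin ligases with *Ube3a* and of the P4-ATPases with *Atp10a*, each family ordered along the horizontal axis by its level in the wild types of the PWS-cr series, with *Ube3a* and *Atp10a* in red. In the wild types of the PWS-cr series *Ube3a* is 19th of 26 and *Atp10a* 9th of 15, and the place of *Ube3a* depends on the exon union by which its FPKM is divided.

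*Atp10a* stood in the lower part of its family. Of 15 P4-ATPases it was 9th by FPKM in PWS-cr and their wild types and 10th in PWS-IC and theirs. In the wild types of the PWS-IC series *Atp10d*, its paralogue, was next above it at 1.77 ± 0.0916 FPKM and *Atp8b3* next below at 0.344 ± 0.0632 FPKM. In those of the PWS-cr series it lay between *Atp9b* at 6.16 ± 0.183 FPKM and *Atp10d* at 0.915 ± 0.0918 FPKM. All 4 steps were wider than the SDs. *Atp10d* was higher in the wild types of the PWS-IC series than in those of the PWS-cr series (log2 fold change 0.97, edgeR adjusted p = 4.22e-06). *Atp9a*, an endosomal P4-ATPase, led with 81.1 to 85.2 FPKM.

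Of the other P4-ATPases, 0 of 14 were called in PWS-cr and 0 of the 13 tested in PWS-IC with or without the pair. The shares of all tested genes called were 0.0135% in PWS-cr, 0% in PWS-IC as labelled and 0.242% without the pair. Their median log2 fold change was -0.00 in PWS-cr and -0.07 in PWS-IC without the pair. *Atp8a1* and *Atp8a2*, flippases of phosphatidylserine, had 0.06 and -0.01 in PWS-cr and -0.12 and -0.07 in PWS-IC, and *Atp11b*, another aminophospholipid flippase, had 0.02 and -0.07. *Tmem30a*, the beta subunit that most P4-ATPases need to leave the endoplasmic reticulum, had 0.04 and -0.04, and 0 of the 3 beta subunits were called. Between the wild types, 2 of 14 P4-ATPases were called higher (*Atp10d* and *Atp8b3*) and 4 lower (*Atp11a*, *Atp8b2*, *Atp8b4* and *Atp8b5*), beside 10.3% and 10.8% of all tested genes, and *Tmem30a* was higher (0.29, adjusted p = 0.00257).

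Along the chromosome, the paternally expressed genes and the non-imprinted neighbours were counted as lists. Of 10 tested paternally expressed genes of the interval, 10 were called lower in PWS-IC without the pair, beside 0.16% of all tested genes, and 2, *Snhg14* and *Gm44831*, in PWS-cr, beside 0.00902%. Of 9 neighbours outside the imprinted genes, 0 were called in either model, with a median log2 fold change of 0.01 in PWS-cr and -0.06 in PWS-IC. The shares of all tested genes called in either direction were 0.0135% in PWS-cr and 0.242% in PWS-IC without the pair. *Gabra5*, a GABA-A receptor subunit on the *Atp10a* side, had 0.09 in PWS-cr and -0.01 in PWS-IC. *Cyfip1*, a regulator of actin and translation, had 0.01 and -0.09. The log2 fold changes of *Ube3a* (0.02 and 0.10) and *Atp10a* (-0.09 and -0.02) lay beside ranges of -0.11 to 0.09 in PWS-cr and -0.16 to 0.06 in PWS-IC for these neighbours.

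Across the 20 libraries, with levels centred within each series, the genes most like *Ube3a* among 12281 candidates were *Grk3*, a receptor kinase (Pearson's r = 0.957), *Pfkp*, a phosphofructokinase (0.936), *Braf*, a kinase of the MAPK pathway (0.936), and *Ntrk3*, a neurotrophin receptor (0.935). Those most like *Atp10a* were *Eya1*, a developmental phosphatase (0.879), *Slc26a2*, a sulphate transporter (0.874), *Akap5*, a scaffold of protein kinase A (0.870), and *Kirrel*, an adhesion molecule (0.858). These likenesses were the highest of all candidates and rest in part on single libraries. Without the 2 libraries farthest from the median of *Ube3a*, those labelled 1_3_IC and 4_4_IC, r was 0.783, 0.736, 0.698 and 0.647 for the same genes. Without 1_3_IC and 1_5_Cr, the farthest for *Atp10a*, it was 0.716, 0.699, 0.694 and 0.735. Between *Ube3a* and *Atp10a* themselves, r was 0.770 and Spearman's rho 0.454 over 20 libraries, and 0.351 and 0.234 over the 18 without the pair. The libraries share litters and series, and no test is given.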

How the data were processed

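Whole-brain RNA was taken at P0, polyA selected and sequenced as paired, unstranded libraries; the authors mapped reads to mm10 with STAR and counted them per gene with featureCounts. The deposited raw counts were used for all tests, and the FPKM, scaled by the authors within each series, for comparing levels between genes. Size-factor-scaled counts, TPM and the authors' own DESeq2 fold changes, statistics and p-values were deposited too and were not used. The authors left out 1 library per series after clustering.

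The quasi-likelihood test of edgeR 4.0.16 (glmQLFit, glmQLFTest, run in R 4.3.3) was applied to every gene that reached 10 counts in 4 or more libraries. Libraries were scaled by TMM, the model held litter and genotype, and p-values were adjusted over all genes tested (Benjamini-Hochberg, threshold 0.05). The difference between models came from 1 fit over both series with genotype within series. The comparison of wild types had series as its term, and that of sexes had litter, genotype and sex. An SE is the log2 fold change divided by the square root of F. The fits were tested on simulated counts without litter differences, with known changes larger than any of *Ube3a* or *Atp10a* here. That test does not bear on changes as small as theirs. Positions and exon unions are from GENCODE M21, where 55144 of 55409 IDs matched for PWS-cr and 55141 of 55406 for PWS-IC, and promoters from RefSeq, where both genes matched. Totals of 45798407 to 62103143 counts per library limit the precision of genes with few counts, and pups are separate animals, some of 1 litter.

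*Ube3a* and *Atp10a*, the 16 gene lists and the tests were chosen with earlier results of these data known. Genes named are both members, every gene overlapping them, list genes called in a genotype fit, up to 4 genes per list with the highest mean CPM, and the 4 genes most like each member by Pearson's r of log2 CPM (prior count 2, mean CPM of at least 5), while *Snrpn*, *Xist* and *Eif2s3y* check the labels. Genes beside *Ube3a* or *Atp10a* in a family's order, at its ends, or called between the wild types, markers included, were named after their values were seen. A gene that the rule takes from the neighbours is not reported here. Alternatives were DESeq2 1.42.0, other filters, scalings and models, exact permutation within litters, and leaving out each library.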

Additional observations from a re-analysis of the deposited data

Results flagged for a closer look

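The lowest wild-type library for *Ube3a* in the PWS-IC series without the pair, 1_5_IC, had 187.888 CPM, apart from the other 3 at 202 to 205 CPM. For *Atp10a*, the wild-type library 3_1_Cr had 7.21173 CPM, apart from the other 4 at 8.17 to 8.43 CPM. Both stood apart by Dixon's criterion, which chance meets in about 1 in 20 groups.

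All 6 genes that overlap *Ube3a* had genotype effects that differed between the models, by the interaction test without the pair (edgeR, adjusted p under 0.05). The PWS-IC effect minus the PWS-cr effect was -5.98711 for *Gm44562*, -5.52867 for *Gm44560*, -5.34646 for *Gm44559*, -3.60122 for *Gm44830*, -3.57142 for *9330162G02Rik* and -1.4266 for *Snhg14* on the log2 scale. For *Ube3a* itself the difference was 0.08 and did not pass. What share of the *Ube3a* counts came from opposite-strand RNA was not tested.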

How the results depend on the processing

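Over 250 alternatives of the values of *Ube3a* and *Atp10a*, 235 kept direction and side of the threshold, 15 changed sign, and 0 crossed the threshold. They include refits without each library and exact permutations of genotype within litters. In PWS-IC without the pair, the arrangements were too few for a permutation p under 0.05, so that alternative could not cross. Sign changed for *Ube3a* in PWS-cr without litter in the model (-0.0156), for *Ube3a* in PWS-IC without the pair with sex in the model (-0.0215) and for *Atp10a* there without litter (0.0136), and the cause was not tested. Leaving out 1 library gave log2 fold changes in PWS-cr of -0.0460 (without wild-type 1_3_Cr) to 0.0620 for *Ube3a* and -0.137 to -0.0486 for *Atp10a*. In PWS-IC as labelled it gave -0.211 to 0.0531 (without the library labelled 1_3_IC) and -0.234 to -0.0523, and without the pair 0.0578 to 0.169 and -0.0928 to 0.0339. For the difference of effects it gave -0.234 to 0.0271 and -0.146 to 0.0340 as labelled, and 0.0294 to 0.157 and -0.000581 to 0.134 without the pair. For sex it gave -0.0862 to -0.0273 and -0.0471 to 0.0375, and between wild types 0.314 to 0.374, past the threshold in 9 of 9, and -0.230 to -0.133.

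Counts of genes called depended more on the method. In PWS-cr, 3 became 7 and 10 with DESeq2 on the same and on all genes and 10 with no filter. In PWS-IC as labelled, 0 became 1, 2 and 471 under the same settings. Without the pair, 53 became 223, 241 and 978, 31 with at least 10 counts in every library and 174 with sex in the model. Leaving out 1 library gave 2 to 4, 0 to 1 and 28 to 55 (28 without wild-type 4_3_IC, 31 without wild-type 4_6_IC). No paired analysis was possible because pups share a litter, which is in the model, and no number that pairs them.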
